A study of Mus musculus with 128 samples.

Results

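Gene expression was compared in the adult hippocampus of 5 trisomic Ts65Dn male mice and 5 euploid male littermates. These 10 arrays, 1 per animal, were chosen as the complete Ts65Dn hippocampus experiment among the 128 arrays of the study, and all 21225 probe sets of each array were used. All animals came from crosses of Ts65Dn/F1 females with B6EiC3Sn.BLiAF1 males and were 6 to 7 months old, so both groups shared a segregating hybrid background. Each animal carried its genotype constitutively, in every cell type, and no treatment was given. The study set 3 mouse models of Down syndrome (DS) side by side, Ts65Dn, Ts1Cje and Dp16, the last being Dp(16)1/Yey, in the embryonic forebrain and in the adult cortex, hippocampus and cerebellum. RNA of the whole dissected hippocampus was labelled, so a lower signal can come from fewer cells of a type or from less RNA per cell, which cannot be told apart here.

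The Ts65Dn mouse carries a small extra chromosome that segregates freely. Its long part comes from distal mouse chromosome 16 (MMU16) and holds orthologs of genes on human chromosome 21, and its centromere end comes from mouse chromosome 17 (MMU17) and holds genes with no counterpart on human chromosome 21. The hippocampus is a structure for spatial and contextual memory, built of pyramidal neurons of the CA fields and of granule neurons of the dentate gyrus. The choroid plexus, which makes cerebrospinal fluid, lies against the hippocampus in the lateral ventricle and can be taken along or lost when the tissue is dissected. Its epithelium carries very high levels of a few transcripts, among them Ttr, a thyroid hormone carrier, Folr1, a folate receptor, and Kl, which encodes klotho.

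One of the 10 arrays went against its tissue label. The library labelled TS18 had a mean correlation of 0.972 with the other 9 arrays, against 0.982 for TS5 and 0.988 to 0.989 for the remaining 8, whose array medians were all within 6.45 to 6.56 on the log2 scale, as was that of TS18. In TS18, 238 probe sets were more than 2-fold below the lowest of the other 9 arrays and 198 were more than 2-fold above the highest, where no other array had more than 5 below or 18 above. Neurod6, a transcription factor of pyramidal neurons, measured 4.55 in TS18, 10.05 in TS21, 9.96 in TS4, 9.34 in TS5 and 9.86 in TS9 and 9.60 to 9.88 in the euploid animals. Slc6a3, the dopamine transporter of midbrain neurons, measured 9.90 in TS18, 5.62 in TS21, 5.91 in TS4, 6.08 in TS5 and 5.48 in TS9 and 5.68 to 5.80 in the euploid animals. TS18 alone was low for the first gene and high for the second.

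The same split held for whole marker lists. Relative to the euploid mean, the 10 pyramidal neuron markers averaged -1.96 on the log2 scale in TS18, and the CA1, CA2 and CA3, and dentate granule lists averaged -1.42, -0.57 and -0.76. The 16 thalamic markers averaged 1.90, and 20 markers of the midbrain, hypothalamus and hindbrain, listed after this array had been seen, averaged 2.15. In the other 4 trisomic animals all of these lists lay between -0.19 and 0.26. Tcf7l2 and Prkcd, which mark the thalamus, measured 10.86 and 10.72 in TS18, and Th, Tph2 and Pmch, which mark dopaminergic, serotonergic and melanin-concentrating hormone neurons, measured 8.96, 8.20 and 9.16. The cortex and cerebellum arrays of the same animal correlated with the arrays of their own region like those of the other animals (mean r of 0.995 and 0.995). Results are therefore given with and without the library labelled TS18, and how the different tissue content arose was not tested.

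**Figure D1:**
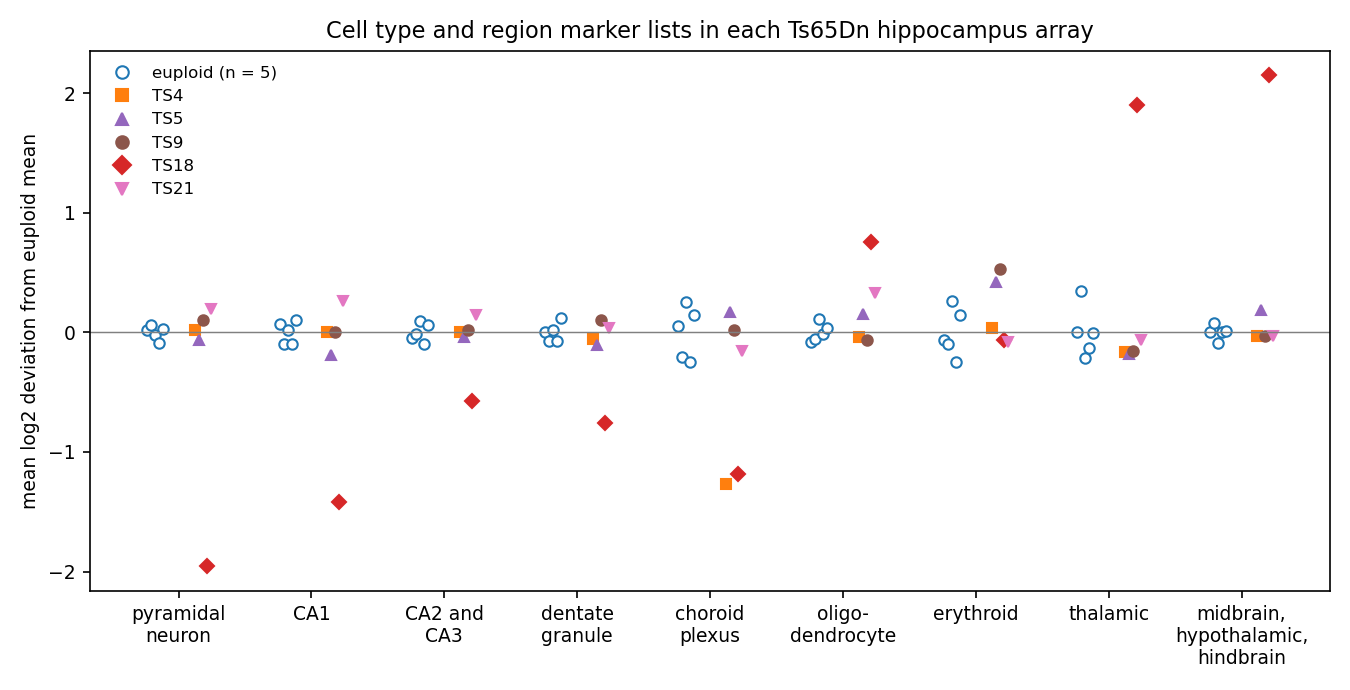
Mean log2 deviation of each marker list from the euploid mean (vertical axis) in each Ts65Dn hippocampus array, with open circles for the 5 euploid animals and filled symbols for the 5 trisomic animals. TS18 lies at -1.96 for pyramidal neurons and at 1.90 for the thalamic list, and TS18 and TS4 are both low for the choroid plexus list.

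The trisomic label of TS18 held. Over the MMU16 segment genes with a signal above the median of all probe sets, its median FC against the euploid mean was 1.35, within the 1.24 to 1.47 of the other 4 trisomic animals and above the 0.933 to 1.04 of the euploid animals. Over the MMU17 segment it was 1.34, against 1.33 to 1.46 in the other trisomic and 0.925 to 1.08 in the euploid animals.

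Trisomic animals were compared with their euploid littermates to ask which genes the extra chromosome changes in adult hippocampus. A differentially expressed (DEX) gene had an FDR below 10% by limma, a test that shares information on the spread across genes, with P-values adjusted jointly over the 12 comparisons of the study. The analysis found 28 DEX genes, all higher in trisomic animals, or 0.132% of all probe sets. Of these, 18 were among the 123 probe sets of the MMU16 segment, 6 among the 29 of the MMU17 segment and 4 elsewhere. No gene was called lower by limma or by the methods' t-test (0 by each), while 258 probe sets (1.22%) were lower and 738 (3.48%) higher at an unadjusted P under 0.05. Without TS18, limma called 32 DEX genes (0.151%), again all higher, of which 22 were shared with the 28. In all, 204 probe sets (0.961%) were higher in every trisomic than in every euploid animal and 43 (0.203%) were lower. Of the segment genes, 39 of 123 on MMU16 and 12 of 29 on MMU17 were higher in this sense, and none was lower.

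The DEX gene with the lowest P was Cct8, a subunit of the chaperonin that folds actin and tubulin. Cct8 measured 10.22 in TS18, 10.21 in TS21, 10.19 in TS4, 10.01 in TS5 and 10.13 in TS9, against 9.53 in Eup15, 9.57 in Eup16, 9.46 in Eup17, 9.52 in Eup6 and 9.56 in Eup8. All 5 trisomic animals lay above all 5 euploid animals, and the gap between the groups was wider than the spread within either. The FC was 1.54 (log2 0.63, SE 0.08, FDR 0.00384 by limma), and 1.53 without TS18.

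Gart, which encodes 3 enzyme activities of purine synthesis, measured 8.64 in TS18, 8.61 in TS21, 8.56 in TS4, 8.49 in TS5 and 8.47 in TS9, against 8.05 in Eup15, 7.97 in Eup16, 7.98 in Eup17, 7.85 in Eup6 and 7.86 in Eup8. All 5 trisomic animals were again above all 5 euploid animals, at an FC of 1.53 (FDR 0.00633 by limma). Dyrk1a, a dosage-sensitive kinase studied in DS, measured 10.20 in TS18, 10.31 in TS21, 10.21 in TS4, 10.29 in TS5 and 10.20 in TS9, against 9.70 in Eup15, 9.69 in Eup16, 9.86 in Eup17, 9.80 in Eup6 and 9.77 in Eup8. The trisomic values lay close together and above all euploid values, at an FC of 1.39 (FDR 0.0239 by limma).

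The other MMU16 genes called in every fit with 1 animal left out were Tmem50b, Dop1b, Atp5o and Itsn1. Tmem50b, a membrane protein, had an FC of 1.48. Dop1b, a protein of membrane trafficking, had 1.45. Atp5o, a subunit of the mitochondrial ATP synthase, had 1.47, and Itsn1, an endocytic scaffold, had 1.49. Across the 10 fits the FC of these 4 genes stayed between 1.42 and 1.54. Jam2 was called in 9 of the 10 fits, and Mrps6, Synj1, Scaf8 and Slc38a5 were each called in 1.

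Jam2, a junctional adhesion molecule of endothelial and epithelial contacts, had the highest FC of the segment. It measured 9.24 in TS18, 8.63 in TS21, 8.54 in TS4, 8.55 in TS5 and 8.32 in TS9, against 7.91 in Eup15, 7.55 in Eup16, 7.87 in Eup17, 7.69 in Eup6 and 7.71 in Eup8. TS18 was the highest of the trisomic animals, and all 5 were above all euploid animals. The FC was 1.88 (FDR 0.0317 by limma) with TS18 and 1.70 (0.00669) without it.

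**Figure D2:**
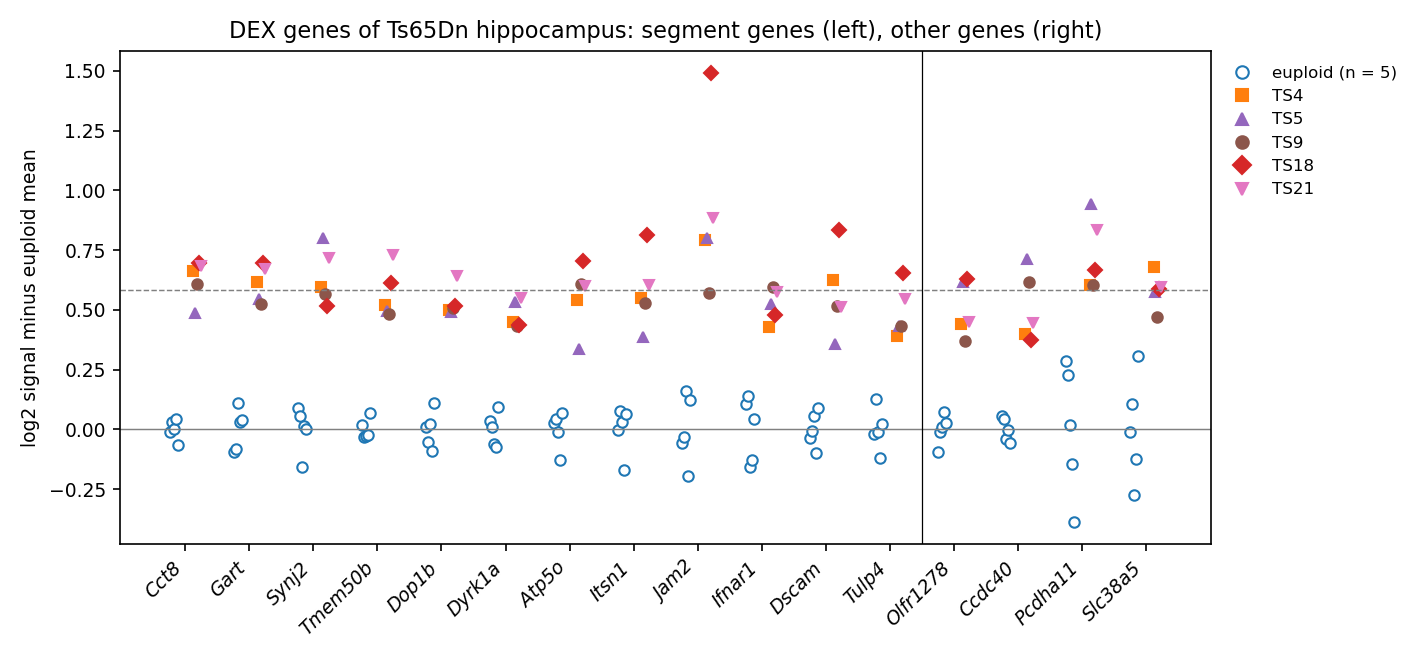
Log2 signal minus the euploid mean (vertical axis) for DEX genes of the segments (left of the line) and for the 4 DEX genes outside them (right), with open circles for euploid and filled symbols for trisomic animals. The dashed line marks a ratio of 1.5, and the trisomic animals of every gene shown lie above all of its euploid animals.

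One of the triplicated genes is Gabpa, a transcription factor of the ETS family whose known binding letters hold CCGGAAG. The promoters of the called genes were therefore read for these letters on both strands (CTTCCGG on the other strand). Of the 16 called MMU16 genes with a promoter in RefSeq on GRCm38.p6, 5 held the letters in a window of 300 bases around the gene start (31.2%), namely Cct8, Ifnar1, Gart, Dop1b and Dscam. They were held by 18 of 100 MMU16 segment genes and by 9.93% of 27025 genes with a window (8.86% of all 32851 windows), and by none of 4 called MMU17 genes. A match is a description of the sequence only. The windows of 3 of these genes are shown because they were called and hold the letters, on either strand, in capitals. In the order shown they lie on chr16:87495820-87496119 (minus strand), chr16:91646923-91647222 (minus strand) and chr16:91484965-91485264 (plus strand):
Cct8: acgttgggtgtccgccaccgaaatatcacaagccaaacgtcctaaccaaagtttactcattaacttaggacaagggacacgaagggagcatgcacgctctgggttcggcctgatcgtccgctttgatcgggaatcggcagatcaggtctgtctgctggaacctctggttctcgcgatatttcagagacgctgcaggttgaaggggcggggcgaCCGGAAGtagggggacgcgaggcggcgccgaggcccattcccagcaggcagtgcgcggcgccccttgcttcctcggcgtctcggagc
Gart: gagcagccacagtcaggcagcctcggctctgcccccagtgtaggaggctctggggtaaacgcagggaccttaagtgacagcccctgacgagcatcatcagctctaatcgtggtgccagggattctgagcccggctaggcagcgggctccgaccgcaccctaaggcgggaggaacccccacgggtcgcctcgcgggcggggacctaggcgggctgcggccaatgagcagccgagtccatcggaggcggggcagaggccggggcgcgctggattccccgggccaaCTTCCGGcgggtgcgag
Ifnar1: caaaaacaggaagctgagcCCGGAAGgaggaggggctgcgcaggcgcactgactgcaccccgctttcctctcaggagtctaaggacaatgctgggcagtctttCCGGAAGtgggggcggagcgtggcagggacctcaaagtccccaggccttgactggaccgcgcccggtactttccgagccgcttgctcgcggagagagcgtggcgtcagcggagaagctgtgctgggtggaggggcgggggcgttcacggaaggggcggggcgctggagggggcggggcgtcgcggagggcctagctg

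Gabpa itself measured 7.37 in TS18, 7.52 in TS21, 7.47 in TS4, 7.24 in TS5 and 7.46 in TS9, against 7.30 in Eup15, 7.03 in Eup16, 7.13 in Eup17, 6.74 in Eup6 and 6.91 in Eup8. One trisomic animal, TS5, lay within the euploid range, so the groups overlapped. The FC was 1.31, and the gene was not DEX (FDR 0.477 by limma).

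The FC varied along both segments. Of the MMU16 probe sets, 59 had a mean signal above the median, with a median FC of 1.35 and an interquartile range of 1.24 to 1.43. Of these 59, 56 had an FC above 1, 46 lay between 1.2 and 1.8, 35 were higher in every trisomic animal and 17 were DEX. The 64 dimmer probe sets had a median FC of 1.08, and 20 keratin-associated genes among the 123 had 1.00. On MMU17, 19 probe sets above the median had a median FC of 1.40, of which 18 were above 1, 12 did not overlap between groups and 6 were DEX. Both medians were lower than the ratio of 1.5 that 3 copies against 2 would give.

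**Figure D3:**
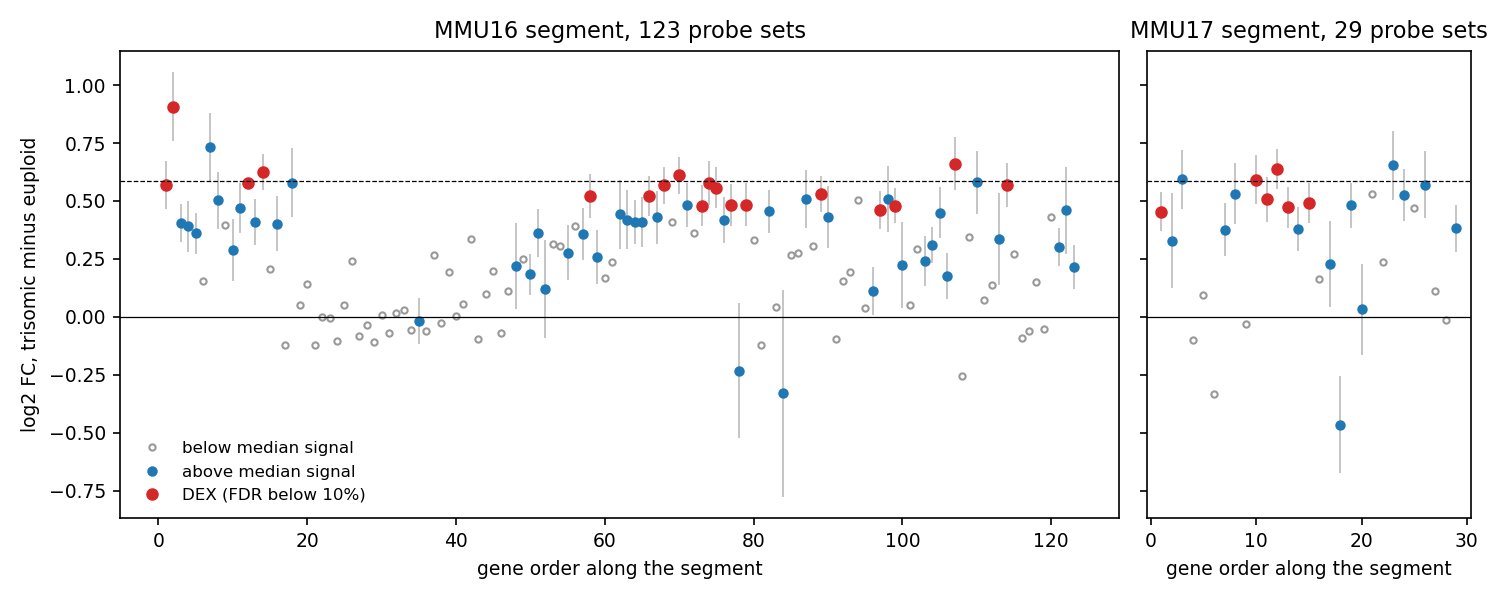
Log2 FC (vertical axis; bars, standard error) of each probe set in gene order along the MMU16 segment (left) and the MMU17 segment (right). Red points are DEX genes, blue points other probe sets above the median signal, open grey points dimmer ones, and the dashed line a ratio of 1.5; the median FC of probe sets above the median signal was 1.35 on MMU16 and 1.40 on MMU17.

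Grouped by role, the triplicated genes of protein folding, sorting and degradation and those of mitochondria were all marginally dysregulated with all animals included. A marginally dysregulated gene (MDG) reached P under 0.05 before adjustment together with a change beyond 1.2-fold up or an FC lower than 0.8. Higher MDGs made up 2.20% of all probe sets (3.26% without TS18). In the MMU16 segment they were 59 of 123 probe sets, and 45 of the 59 with a signal above the median. The counts by role stand beside these segment shares, and no role group was tested against them. All 11 genes of protein folding, sorting and degradation were MDGs and 5 were DEX, among them Get1, which helps insert tail-anchored proteins into the endoplasmic reticulum (FC 1.58), and Ttc3, a ubiquitin ligase (FC 1.38). All 5 mitochondrial genes were MDGs and 3 were DEX, namely Mrpl39 and Mrps6, proteins of the mitochondrial ribosome (FC 1.48 and 1.40), and Atp5o. Of 9 metabolic genes, 6 were MDGs and 2 were DEX, Gart and Cryzl1. Without TS18, 10 of the 11 folding, 5 of the 5 mitochondrial and 7 of the 9 metabolic genes were MDGs. In that fit 5, 2 and 2 of them were DEX.

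Among 12 genes of synapse, excitability and wiring, 5 were MDGs and 3 were DEX, against 7 and 4 without TS18. The 3 DEX genes with all animals were Synj1, the phosphatase synaptojanin 1 that uncoats synaptic vesicles, Itsn1, and Dscam. Dscam is a cell adhesion molecule of neuronal wiring (FC 1.48). Synj1 measured 10.86 in TS18, 11.32 in TS21, 11.29 in TS4, 11.07 in TS5 and 11.13 in TS9, against 10.64 in Eup15, 10.59 in Eup16, 10.62 in Eup17, 10.65 in Eup6 and 10.57 in Eup8. TS18 was the lowest trisomic animal but stayed above every euploid animal, and the FC was 1.43 (FDR 0.0700 by limma) with it and 1.5 (0.0109) without it. The kainate receptor gene Grik1 (FC 1.49) was an MDG with overlapping groups.

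The interferon receptor genes form a cluster on MMU16, and 4 of 6 genes of the interferon and cytokine receptor group were MDGs. Ifnar1, which encodes a subunit of the type I interferon receptor, measured 8.80 in TS18, 8.90 in TS21, 8.75 in TS4, 8.85 in TS5 and 8.92 in TS9, against 8.16 in Eup15, 8.19 in Eup16, 8.36 in Eup17, 8.43 in Eup6 and 8.46 in Eup8. It was DEX at an FC of 1.43 (FDR 0.0371 by limma), with no overlap between groups. Ifnar2, Il10rb and Ifngr2 had FCs of 1.33, 1.33 and 1.35, while the antiviral genes Mx1 and Mx2 were dim and had 0.940 and 1.11. Of 54 genes of the interferon response elsewhere in the genome, 0 were DEX by limma. At an unadjusted P under 0.05, 7 were higher and 0 lower, beside 3.48% and 1.22% of all probe sets. Of the list, 4 were higher MDGs (Oasl2, Irf7, Igtp and Gbp4), beside 2.20% of all probe sets. The median log2 change of the list was 0.12 against 0.03 over all probe sets.

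Of 10 triplicated transcription factors, 6 were MDGs, 8 had an unadjusted P under 0.05 and 0 were DEX by limma. Olig1 and Olig2, regulators of the oligodendrocyte lineage, had FCs of 1.34 and 1.36 with TS18 highest in both, and 1.23 and 1.27 without TS18. The 20 oligodendrocyte markers had a median log2 change of 0.23, and 0.10 without TS18. Relative to the euploid mean they averaged 0.76 in TS18, 0.33 in TS21 and 0.15 in TS5. TS4 and TS9 were at -0.04 and -0.06, within the -0.08 to 0.11 of the euploid animals. The part of the oligodendrocyte signal in the values of Olig1 and Olig2 was not tested. The chromatin group held 3 MDGs among 7 genes, the RNA processing group 4 among 5, the adhesion group 5 among 9 and the kinase group 3 among 5.

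App, the precursor of the amyloid peptide, measured 12.48 in TS18, 12.69 in TS21, 12.42 in TS4, 12.31 in TS5 and 12.50 in TS9, against 12.02 in Eup15, 12.04 in Eup16, 12.15 in Eup17, 12.18 in Eup6 and 12.21 in Eup8. Every trisomic animal was above every euploid animal, at an FC of 1.28, but App was not DEX (FDR 0.327 by limma, 0.372 without TS18). Sod1, superoxide dismutase, measured 11.68 in TS18, 11.65 in TS21, 11.47 in TS4, 11.48 in TS5 and 11.57 in TS9, against 11.20 in Eup15, 11.33 in Eup16, 11.44 in Eup17, 11.44 in Eup6 and 11.51 in Eup8. Its groups overlapped, and the FC of 1.14 had an FDR of 0.810 by limma. Rcan1, the calcineurin inhibitor encoded in the same segment, had non-overlapping groups at an FC of 1.37 and was not DEX.

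Some triplicated genes were DEX only once the library labelled TS18 was left out. Kcnj6, the potassium channel GIRK2, measured 6.44 in TS18, 7.53 in TS21, 7.56 in TS4, 7.38 in TS5 and 7.59 in TS9, against 7.13 in Eup15, 7.02 in Eup16, 7.12 in Eup17, 7.03 in Eup6 and 7.07 in Eup8. TS18 lay below all euploid animals and the other 4 trisomic animals above them. The FC was 1.17 (FDR 0.880 by limma) with TS18 and 1.36 (0.0670) without it.

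Ifngr2, a subunit of the interferon gamma receptor, measured 9.79 in TS18, 10.36 in TS21, 10.26 in TS4, 10.24 in TS5 and 10.35 in TS9, against 9.74 in Eup15, 9.62 in Eup16, 9.79 in Eup17, 9.89 in Eup6 and 9.83 in Eup8. Here TS18 fell within the euploid range, and the FDR moved from 0.409 to 0.0235 by limma without it. On MMU16, Son, an RNA splicing factor, and Cbr3, a carbonyl reductase, were also DEX only without TS18 (FC 1.43 and 1.39). In turn Cryzl1, Mrps6 and Smim11 on MMU16 were DEX only with it (FDR 0.115, 0.114 and 0.131 by limma without it).

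The MMU17 genes of the extra chromosome have no dosage change in people with DS. Synj2, synaptojanin 2, measured 9.02 in TS18, 9.22 in TS21, 9.10 in TS4, 9.31 in TS5 and 9.07 in TS9, against 8.35 in Eup15, 8.52 in Eup16, 8.51 in Eup17, 8.6 in Eup6 and 8.57 in Eup8. It had the lowest P of the segment, with an FC of 1.56 (FDR 0.00880 by limma) and no overlap, and was called in every fit with 1 animal left out. Zdhhc14, a palmitoyltransferase, measured 9.25 in TS18, 9.79 in TS21, 9.61 in TS4, 9.46 in TS5 and 9.64 in TS9, against 9.03 in Eup15, 8.96 in Eup16, 9.08 in Eup17, 8.87 in Eup6 and 8.85 in Eup8. TS18 was its lowest trisomic value, and the FC was 1.51 with and 1.59 without TS18 (FDR 0.0571 and 0.00906 by limma).

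The other 4 called MMU17 genes were Tulp4 (FC 1.41), Snx9, a sorting nexin of endocytosis (1.42), Serac1, a protein of phospholipid remodelling (1.39), and Scaf8, a protein that binds RNA polymerase II (1.37). Without TS18, Snx9 and Scaf8 were no longer DEX (FDR 0.120 and 0.111 by limma), and Tulp4 and Serac1 still were. Tiam2, an activator of the GTPase Rac, measured 6.27 in TS18, 7.45 in TS21, 7.50 in TS4, 7.37 in TS5 and 7.49 in TS9, against 6.75 in Eup15, 6.80 in Eup16, 7.10 in Eup17, 6.94 in Eup6 and 6.84 in Eup8. TS18 was below all euploid animals and the other 4 were above them, so that the FC was 1.26 (FDR 0.849 by limma) with and 1.48 (0.0265) without TS18. Gtf2h5, a subunit of transcription factor TFIIH, and Fndc1 were likewise DEX only without TS18 (FDR 0.0431 and 0.0279 by limma). The only probe sets of either segment that were lower MDGs were 4930470H14Rik and Mir692-1 on MMU17, both with overlapping groups.

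Outside the segments 4 genes were DEX. Slc38a5, a glutamine transporter on the X chromosome, measured 6.83 in TS18, 6.84 in TS21, 6.92 in TS4, 6.82 in TS5 and 6.71 in TS9, against 5.97 in Eup15, 6.12 in Eup16, 6.55 in Eup17, 6.23 in Eup6 and 6.35 in Eup8. The groups did not overlap, and the FC was 1.5 (FDR 0.0707 by limma). In Ts65Dn cortex its FC was 1.49 (FDR 0.0286), and in cerebellum 1.41 (FDR 0.142). The 3 regions came from the same animals.

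Ccdc40, a gene for the assembly of motile cilia on chromosome 11, measured 5.81 in TS18, 5.88 in TS21, 5.84 in TS4, 6.15 in TS5 and 6.05 in TS9, against 5.39 in Eup15, 5.43 in Eup16, 5.38 in Eup17, 5.49 in Eup6 and 5.48 in Eup8. All trisomic animals were above all euploid animals, at an FC of 1.42 (FDR 0.0459 by limma). Pcdha11, a clustered protocadherin on chromosome 18, measured 5.89 in TS18, 6.06 in TS21, 5.83 in TS4, 6.17 in TS5 and 5.83 in TS9, against 5.24 in Eup15, 5.08 in Eup16, 4.84 in Eup17, 5.51 in Eup6 and 5.45 in Eup8. The gap between its groups was smaller than the spread of the euploid animals, and the FC was 1.66 (FDR 0.0579 by limma). Members of this cluster share sequence, so their probe sets may not be separate, and the neighbouring Pcdha12 had an FC of 0.577 with overlapping groups.

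Olfr1278, an olfactory receptor gene on chromosome 2, measured 3.70 in TS18, 3.52 in TS21, 3.51 in TS4, 3.69 in TS5 and 3.44 in TS9, against 3.08 in Eup15, 3.14 in Eup16, 3.10 in Eup17, 2.98 in Eup6 and 3.06 in Eup8. The groups did not overlap (FC 1.42, FDR 0.0331 by limma), and all of these values lay far below the median signal of all probe sets. Ccdc40 and Pcdha11 were dim as well, with every value below that median. Without dim probe sets, 1 DEX gene outside the segments was left. In cortex and cerebellum of the same animals the FCs of Olfr1278, Ccdc40 and Pcdha11 were all between 0.973 and 1.05. Without TS18, 3 more genes outside the segments were DEX, Tex13c1, Rbp3 and Rtl3, and Slc38a5 was not (FDR 0.104 by limma).

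There were 468 higher and 108 lower MDGs (0.509% of probe sets), or 691 and 133 (0.627%) without TS18. Of the higher MDGs, 59 lay in the MMU16 and 17 in the MMU17 segment. Dim probe sets made up 59.0% of the higher and 78.7% of the lower MDGs, where the median splits all probe sets evenly into dim and brighter ones. Olfactory receptor genes were 36 of the 468 higher and 14 of the 108 lower MDGs, beside 1098 of all 21225 probe sets. Among lower MDGs outside the segments, Pcdhb2, another protocadherin, measured 6.27 in TS18, 6.07 in TS21, 6.07 in TS4, 6.18 in TS5 and 5.78 in TS9, against 6.61 in Eup15, 6.33 in Eup16, 6.80 in Eup17, 6.74 in Eup6 and 6.51 in Eup8. Its groups did not overlap, but with an FC of 0.695 it was not DEX (FDR 0.2 by limma, 0.119 without TS18).

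The marker and pathway lists held no DEX gene outside the segments. In 36 postsynaptic density genes, 29 immediate early genes, 30 chaperones of the endoplasmic reticulum and 18 complement genes, limma called 0 DEX genes, and 0 had an unadjusted P under 0.05, where 3.48% of all probe sets were higher and 1.22% lower. The median log2 changes of these lists were -0.07, -0.11, 0.06 and 0.01. TS18 stood apart in the first 2 of them, at -0.59 and -0.67 on average, and without it the medians were 0.06 and 0.03. Other lists held MDGs, where 2.20% of all probe sets were higher MDGs, and 3.26% without TS18. Of 32 neurotrophin and growth factor genes, 4 were higher MDGs, among them Fgfr2, Fgf9 and Fgf1, and the list held 2 without TS18. Of 37 monoamine and acetylcholine receptor genes, 3 were higher MDGs, namely Adra2a, Chrna2 and Htr1b, and the list held 0 without TS18. Among 33 antioxidant genes outside the segments, Cat, which encodes catalase, had an FC of 1.33 with no overlap between groups (FDR 0.286 by limma).

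Wfs1, a marker of CA1 pyramidal neurons, measured 7.99 in TS18, 9.07 in TS21, 8.69 in TS4, 8.34 in TS5 and 8.79 in TS9, against 9.13 in Eup15, 9.19 in Eup16, 9.13 in Eup17, 9.23 in Eup6 and 9.09 in Eup8. All trisomic animals were below all euploid animals, with TS18 lowest and TS21 close to the euploid values. The FC was 0.671 (FDR 0.504 by limma), and without TS18 the log2 change moved from -0.58 to -0.43. It was the only MDG by limma among 10 CA1 markers, whose median log2 change was -0.25, and 0.01 without TS18. Fibcd1, another CA1 gene, measured 6.75 in TS18, and its log2 change without that library was 0.01.

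Il33, an alarmin cytokine, measured 10.02 in TS18, 9.24 in TS21, 9.28 in TS4, 9.15 in TS5 and 8.97 in TS9, against 8.87 in Eup15, 8.65 in Eup16, 8.81 in Eup17, 8.77 in Eup6 and 8.68 in Eup8. The groups did not overlap, with TS18 highest. Its FC was 1.49 (FDR 0.483 by limma), and its log2 change was 0.57 with and 0.40 without TS18. Mal, a myelin protein gene, had non-overlapping groups at an FC of 1.38, again with TS18 highest, beside the oligodendrocyte list described above.

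A red blood cell signal stood out in 2 other animals. Hbb-b1, a beta globin gene, measured 5.18 in TS18, 5.64 in TS21, 5.40 in TS4, 7.38 in TS5 and 6.87 in TS9, against 5.32 in Eup15, 5.23 in Eup16, 5.03 in Eup17, 5.17 in Eup6 and 4.70 in Eup8. TS5 and TS9 were high and the other 3 trisomic animals were near the euploid values. Hbb-b1 was an MDG with an FC of 2.01 (FDR 0.699 by limma), and the 6 erythroid genes averaged 0.42 and 0.53 above the euploid mean in these 2 animals. Their part in other results was not tested.

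Choroid plexus genes were low in 2 of the 5 trisomic animals. Ttr measured 9.13 in TS18, 13.02 in TS21, 10.14 in TS4, 12.64 in TS5 and 13.02 in TS9, against 12.89 in Eup15, 12.68 in Eup16, 12.93 in Eup17, 12.96 in Eup6 and 13.04 in Eup8. Folr1 measured 6.02 in TS18, 7.89 in TS21, 6.08 in TS4, 8.61 in TS5 and 8.48 in TS9, against 8.72 in Eup15, 7.84 in Eup16, 8.44 in Eup17, 8.27 in Eup6 and 7.94 in Eup8. For both genes TS18 and TS4 were far below every other animal, while TS21, TS5 and TS9 were at or near the euploid values. The mean log2 changes of -1.31 for Ttr and -0.82 for Folr1 thus rested on these 2 animals, and neither gene was an MDG (P 0.0651 and 0.105, FDR 0.819 and 0.836 by limma).

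Kl measured 6.26 in TS18, 9.18 in TS21, 7.08 in TS4, 9.45 in TS5 and 9.39 in TS9, against 9.57 in Eup15, 8.86 in Eup16, 9.33 in Eup17, 9.51 in Eup6 and 8.85 in Eup8. TS18 and TS4 were again below all other animals. Kcnj13, a potassium channel of the epithelium, was at 6.01 in TS18 and 6.77 in TS4, with a euploid mean of 9.73. Otx2, a homeobox gene of the choroid plexus, was the exception, at 7.59 in TS18 and 5.48 in TS4 against 7.21 ± 0.27 (SD, n = 5) in euploid animals.

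Over the 37 choroid plexus markers outside the segments, 34 in TS18 and 33 in TS4 were below every euploid animal, 31 of them in both, and 3 or 4 were in each of the other trisomic animals. The list averaged -1.19 in TS18 and -1.27 in TS4, between -0.15 and 0.17 in TS21, TS5 and TS9, and between -0.25 and 0.25 in the euploid animals. Its median log2 change was -0.40 against 0.03 over all probe sets, -0.34 without TS18, and 0.02 without both TS18 and TS4, an omission chosen after seeing the data.

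**Figure D4:**
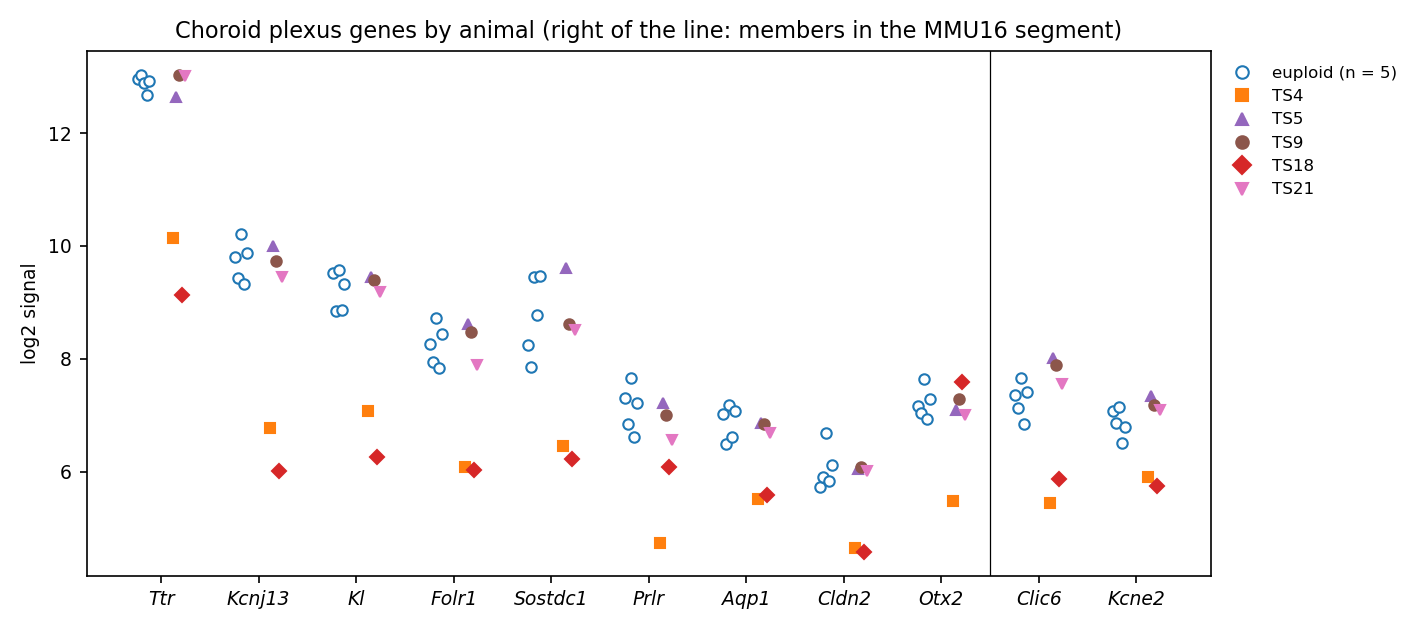
Log2 signal (vertical axis) of choroid plexus genes in each Ts65Dn hippocampus array, with open circles for euploid and filled symbols for trisomic animals; the 2 genes right of the line, Clic6 and Kcne2, are triplicated. TS4 and TS18 lie below all other animals for every gene shown except Otx2, where TS18 is at 7.59.

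Of these 37 markers limma called 0 DEX, with or without TS18. At an unadjusted P under 0.05, 5 were lower, and all 5 were lower MDGs, among them Col8a1, Cltrn, Steap1 and Calml4. Over all probe sets 1.22% were lower at that P and 0.509% were lower MDGs. These were 5 of the 108 lower MDGs. When the mean choroid plexus signal of each array was added to the fit, 57 of the 108 lower and 297 of the 468 higher MDGs were kept. When TS18 and TS4 were left out instead, 57 and 309 were kept. The totals rose in both refits, to 127 lower and 674 higher MDGs with the choroid plexus signal and to 146 and 821 without TS18 and TS4. With only TS18 left out, 78 of the 108 lower and 328 of the 468 higher MDGs were kept. TS18 was itself low for choroid plexus genes, so this refit cannot separate a loss through that signal from other losses. Of the 28 DEX genes, 10 were kept with the choroid plexus signal in the fit and 13 without TS18 and TS4. The refit with the choroid plexus signal and that without TS18 and TS4 also had fewer residual degrees of freedom. The part of this in the losses was not tested.

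Clic6, a chloride channel protein, and Kcne2, a potassium channel subunit, belong both to the triplicated MMU16 genes and to the choroid plexus markers. Clic6 measured 5.86 in TS18, 7.55 in TS21, 5.44 in TS4, 8.01 in TS5 and 7.89 in TS9, against 7.66 in Eup15, 6.83 in Eup16, 7.42 in Eup17, 7.36 in Eup6 and 7.13 in Eup8. TS18 and TS4 were below every euploid animal, and TS5 and TS9 above every one. The FC of 0.796 for Clic6 and of 0.851 for Kcne2, the lowest of the MMU16 genes with a signal above the median, became a log2 change of 0.54 and 0.32 without TS18 and TS4 (FDR 0.613 and 0.771 by limma).

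The number of DEX genes depended on single animals. With 1 animal left out, limma called between 10 (without Eup16) and 34 (without TS5) DEX genes, and 8 genes were called in all 10 fits: Atp5o, Cct8, Dop1b, Dyrk1a, Gart, Itsn1, Synj2 and Tmem50b. Without both TS18 and TS5, the 2 arrays that correlated least with the others, 43 genes were DEX, 24 on MMU16, 11 on MMU17 and 8 elsewhere, of which 21 were shared with the 28. That omission was chosen after seeing the data. Array weights, which let limma count a deviating array less, gave 54 DEX genes that held all 28, and 4 of the 54 were lower.

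**Figure D5:**
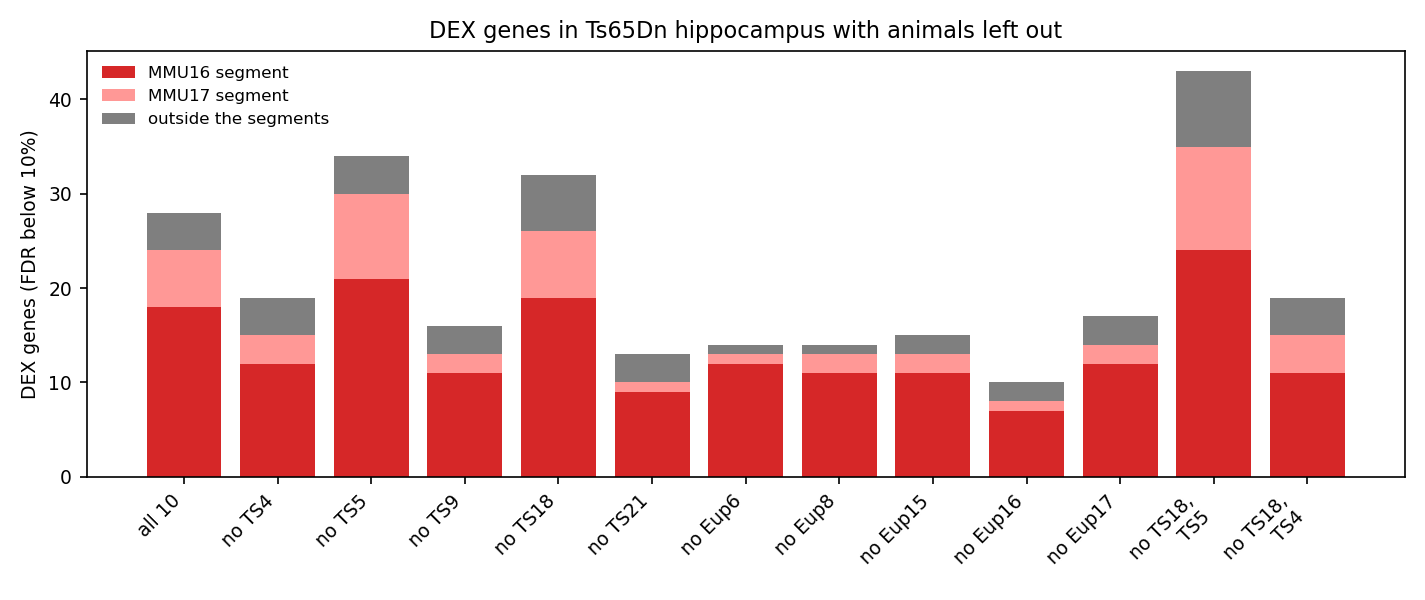
Number of DEX genes (vertical axis) in the fit of all 10 animals and with the named animals left out, split by MMU16 segment, MMU17 segment and other genes. The count was 28 with all animals, 10 without Eup16 and 43 without TS18 and TS5.

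The within-group spread was wider here than in most other adult groups. The median standard deviation within groups was 0.181 on the log2 scale, and 0.160 without TS18, against 0.126 in Ts65Dn cortex, 0.127 in Ts65Dn cerebellum, 0.132 in Dp16 hippocampus and 0.107 in Ts1Cje hippocampus. Ts1Cje cortex had 0.185, Dp16 cortex and cerebellum 0.155 each, and Ts1Cje cerebellum 0.135.

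The trisomic effect in hippocampus was next compared with that in the cortex and cerebellum of the same animals. Of the 28 DEX genes, 24 (85.7%) were also among the 74 DEX genes of cortex (32.4% of those) and 22 (78.6%) among the 63 of cerebellum (34.9%). By a test of the difference itself, limma called 0 genes between hippocampus and cortex (0%) and 0 between hippocampus and cerebellum (0%), and also 0 (0%) in each case without TS18. At an unadjusted P under 0.05 there were 617 and 817 probe sets, and 894 and 984 without TS18. At the lowest P against cortex stood Ccdc40, a dim gene. Its log2 change was 0.51 in hippocampus and -0.01 in cortex (FDR 0.9999 by limma, and 0.838 without TS18). A count of 0 at this spread does not show that the regions respond alike.

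Ts65Dn hippocampus was then set against the hippocampus of the other models. Per the paper, Ts1Cje and Dp16 males were bred with females of C57BL substrains, not with the hybrid used for Ts65Dn. Background strain and normalization thus differed along with the model, and their part in the differences cannot be told apart here. Ts1Cje mice carry 3 copies of a shorter MMU16 segment, without the first genes of the Ts65Dn segment and without any MMU17 gene. The trisomic effect differed for 10 genes (0.0471%), 7 of them in the Ts65Dn segments. These were Cct8 and Mrpl39 on MMU16 and Synj2, Tulp4, Zdhhc14, Scaf8 and Snx9 on MMU17, which in Ts1Cje hippocampus are present in the normal 2 copies. The difference for Cct8 was 0.60 on the log2 scale (SE 0.09, FDR 0.00772 by limma), with a change of 0.02 in Ts1Cje. Of the other 3 genes, Dnah11 and Itgb8 on chromosome 12 moved in Ts1Cje and not in Ts65Dn. Their log2 changes in Ts1Cje were 3.47 and -0.81. The paper states that Ts1Cje mice have lost a copy of some genes at the end of chromosome 12, Itgb8 among them. It ascribes the high Dnah11 signal to the chromosome break made in this model. The dim gene Ccdc40 differed by 0.75 (SE 0.12, FDR 0.00972 by limma), with a change of -0.24 in Ts1Cje. Without TS18, 24 genes differed (0.113%), which held all 10, and with another animal left out the count was between 6 (without Eup6) and 14 (without TS5).

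Dp16 mice carry the longest MMU16 duplication and no extra MMU17 gene. The effect differed for 6 genes (0.0283%), Synj2, Tulp4, Scaf8 and Rsph3a on MMU17 and Olfr1278 and Tex13c1 elsewhere, and 10 without TS18 (0.0471%), of which 5 were shared. With any other animal left out the count was lower, at 1 without each of TS21, TS9, Eup15, Eup16, Eup17 and Eup6, 2 without TS4, 3 without Eup8 and 4 without TS5. Synj2 differed by 0.69 (SE 0.10, FDR 0.0224 by limma). No gene of the MMU16 segment was called, although the calls of DEX genes were unlike in number, with 14 in Dp16 hippocampus, 1 of which was among the 28. Cct8 had an FC of 1.44 in Dp16 hippocampus (FDR 0.196) and 1.02 in Ts1Cje (FDR 0.962). Dyrk1a, triplicated in all 3 models, had 1.27 and 1.29, beside 1.39 in Ts65Dn.

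Some genes followed in the study were checked by name. For Hspa13, App, Ttc3 and Rfx5 the study also ran quantitative RT-PCR in adult cortex and hippocampus. It reports that their changes were alike by both methods and matched the gene dosage of each model. Hspa13, a chaperone gene of MMU16 that lies before the Ts65Dn segment, had a log2 change of 0.00 (SE 0.10) and overlapping groups. Rfx5, a regulator of class II histocompatibility genes on chromosome 3 measured 7.67 in TS18, 6.94 in TS21, 6.98 in TS4, 6.83 in TS5 and 6.96 in TS9, against 7.16 in Eup15, 7.11 in Eup16, 7.38 in Eup17, 7.28 in Eup6 and 7.42 in Eup8. Only TS18 was above the euploid animals, and the other 4 trisomic animals were below them. The log2 change was -0.20 (FDR 0.871 by limma) with TS18 and -0.34 (0.396) without it.

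Of the microRNAs often studied in DS, Mir155, which targets inflammatory and vascular transcripts, lies 1 gene before Mrpl39, the first gene counted in the MMU16 segment. Whether Mir155 is triplicated in Ts65Dn was not settled here. The paper lists it among the marginally dysregulated microRNAs that were upregulated in Ts65Dn hippocampus. Its mature form is shown with the seed, the bases that pair with targets, in capitals, from RefSeq on GRCm38.p6 (chr16:84714143-84714165, plus strand):
miR-155-5p: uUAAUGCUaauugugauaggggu
The probe set for the Mir155 gene measured 5.07 in TS18, 4.83 in TS21, 5.26 in TS4, 5.33 in TS5 and 5.14 in TS9, against 4.72 in Eup15, 4.76 in Eup16, 4.95 in Eup17, 4.83 in Eup6 and 4.58 in Eup8. TS21 lay within the euploid range and the other 4 trisomic animals above it. The FC was 1.28, an MDG but not DEX (FDR 0.567 by limma), and the array reads the gene's transcript rather than the mature microRNA. Mir99a, Mir125b-2 and Mirlet7c-1, which lie outside the segments counted here, had FCs of 0.832, 1.10 and 0.944 with overlapping groups.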

How the data were processed

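RNA of the hippocampus was hybridised to Affymetrix Mouse Gene 1.0 ST arrays. The deposited values are log2 signals that the authors made with RMA, per the labels, separately for each model and region, so only differences within one deposited set were compared. The genome build of the array annotation is not given in the sources used here, and 20768 of 21225 probe sets were matched to RefSeq genes by identifier. Animals were grouped by the genotype in their titles. Trisomic and euploid animals were compared with limma 3.58.1 in R 4.3.3 (data.table package, version 1.17.8), and P-values were adjusted by Benjamini-Hochberg jointly over the 12 comparisons of the study, as its methods do, and for differences between regions or models over that contrast alone. The code was tested on simulated data. The precision of each value is limited by the number of arrays, 5 per group. Each Ts65Dn array was 1 animal, per its title. Ts1Cje hippocampus had 12 arrays of 10 animals, and the repeat arrays of 1 euploid animal were averaged first.

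The segments ran from Mrpl39 to Zbtb21 on MMU16 and from Scaf8 to Pde10a on MMU17. Genes were named if DEX, if among the lowest P-values of a segment or role group, if among the largest changes outside the segments, or if followed by the study. The genes that describe TS18, and Kcnj6, Ifngr2, Tiam2, Gabpa, Il33, Cat, Mal, Wfs1, Hbb-b1 and the growth factor and receptor genes where that rule did not hold them, were chosen after their values were seen. The members, the 59 gene lists and the tests were chosen with earlier results of these data known, and 1 more list, of midbrain, hypothalamic and hindbrain genes, was written after the values were seen. The same animals gave the 3 regions, as the shared animal numbers show. The deviations of an animal's arrays from their group means correlated between -0.0836 and 0.278 across regions, with consensus correlations of 0.0764 for cortex and 0.106 for cerebellum. Columns of the authors' own comparisons were not used. Alternatives were the methods' t-test, array weights, other normalizations, a filter on dim probe sets, the choroid plexus signal as a covariate, other FDR and FC limits, and left-out animals. Some genes are not reported here.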

Additional observations from a re-analysis of the deposited data

Results flagged for a closer look

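The gap of 1 animal to its nearest neighbour, as a share of the range of its group of 5, was above Dixon's limit of 0.71 in several of the genes and lists given above. Chance flags about 1 in 20 groups, a rate that does not hold for genes and lists chosen after their values were seen. Among those were Neurod6, Slc6a3, Th, Tph2, Pmch, Prkcd, Tcf7l2 and the midbrain, hypothalamic and hindbrain list. Kcnj6, Ifngr2 and Tiam2 were also chosen then where no earlier rule held them. The flags of TS18 for all of these only describe that array. The library labelled TS18 was the animal set apart for Neurod6 (0.871), Fibcd1 (0.742), Kcnj6 (0.818), Ifngr2 (0.801) and Tiam2 (0.899), where it was low. It was high for Rfx5 (0.823), Slc6a3 (0.865), Th (0.769), Tph2 (0.888), Pmch (0.859), Prkcd (0.828) and Tcf7l2 (0.898).

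Among marker lists TS18 was set apart for CA1 pyramidal neurons (0.73), CA2 and CA3 pyramidal neurons (0.743), dentate granule neurons (0.757) and all pyramidal neurons (0.881). The same held for the thalamic list (0.943) and the midbrain, hypothalamic and hindbrain list (0.901). TS4 was set apart for Otx2 (0.723). Among euploid animals Eup15 was set apart for Slc6a3 (0.872), within a narrow range of 5.68 to 5.80, and Eup8 for Tcf7l2 (0.784), at 8.44 against 7.51 to 7.71.

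The trisomic effect differed by limma's test of the difference for 10 genes between Ts65Dn and Ts1Cje hippocampus and for 6 genes between Ts65Dn and Dp16 hippocampus. Of these, 7 and 4 lay in the Ts65Dn segments.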

How the results depend on the processing

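With 1 animal left out, there were 10 to 34 DEX genes (10 to 34 higher, 0 to 1 lower), 7 to 21 of them on MMU16, 1 to 9 on MMU17 and 1 to 6 elsewhere. MDGs numbered 413 to 691 higher and 106 to 178 lower, the last without TS21. The methods' t-test gave 16 DEX genes, all 16 higher, with 11 on MMU16, 3 on MMU17 and 2 elsewhere, and 69 lower MDGs. Array weights gave 54 (50 higher, 4 lower; 28, 12 and 14). One fit over the 30 adult Ts65Dn arrays, which shares their spread, gave 93 (86 higher, 7 lower; 45, 16 and 32) and 169 lower MDGs. The choroid plexus covariate gave 13, all 13 higher (7 on MMU16, 3 on MMU17). An FDR of 5% gave 16, all 16 higher, with 2 on MMU17 and 2 elsewhere, and an FDR of 20% gave 1 lower gene and 7 elsewhere. Adjustment over this comparison alone left 3 on MMU17. Without dim probe sets, 1 DEX gene lay elsewhere and MDGs numbered 192 and 23. FC limits of 1.3 and 0.77 gave 188 and 66 MDGs. Leaving out TS18 and TS5, chosen after seeing the data, gave 43, all 43 higher, with 11 on MMU17 and 8 elsewhere. Leaving out TS18 and TS4, also chosen then, gave 18 higher and 1 lower, 11 on MMU16, and 821 higher MDGs. The causes of these moves were not tested.

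Median FCs over all probe sets were 1.21 on MMU16 and 1.303 on MMU17, and 1.303 on MMU17 without keratin-associated genes. The median of the choroid plexus list turned from -0.40 to 0.021 without TS18 and TS4. Genes that differed from Ts1Cje numbered 6 to 24 with 1 animal left out and 6 at an FDR of 5%, and those that differed from Dp16 1 to 10 and 1. No paired analysis was possible within the hippocampus because trisomic and euploid animals share no replicate number. Between regions, with the animal as a replicate block, 0 genes differed from cortex and 0 from cerebellum, also without TS18, so the block changed no call.

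Log2 changes that turned sign belonged to 9 genes. Hspa13 was at -0.012 with median centring, -0.023 with quantile normalization, -0.049 with the choroid plexus covariate, -0.047 without TS18 and TS4, and -0.045 to 0.079 with 1 animal left out. With that covariate, and without TS18 and TS4, Folr1 was at 0.057 and 0.087, Kl at 0.034 and 0.12, Clic6 at 0.50 and 0.54, Kcne2 at 0.28 and 0.32, Sostdc1 at 0.15 and 0.16 and Dnah11 at 0.11 and 0.10. Without TS4, Clic6 was at 0.049 and Otx2 at 0.033, the highest of their ranges from -0.59 and -0.49. Dnah11 was at 0.020 with array weights and -0.059 to 0.061 with 1 animal left out. Itgb8 was at -0.047 with array weights, -0.062 without TS18 and TS5, and -0.026 to 0.11 with 1 animal left out. Of 65 named genes, 15 lost their call under some alternative and 14 gained one. With 5 arrays a group, small changes of dim genes cannot be separated from background.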
